A study of Mus musculus with 15 samples.

Results

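The nuclear genes of respiratory complex I were followed in the tibialis anterior, a fast muscle of the lower hindlimb. Members were the rows of the count table whose Ensembl identifier maps on GRCm38 to a protein-coding gene with a symbol beginning in Ndufa, Ndufb, Ndufc, Ndufs or Ndufv. This rule gave 46 of 30672 genes, on 17 chromosomes. They comprised 36 subunits of the enzyme, 8 assembly factors with symbols in Ndufaf, which are shown apart, and 2 related genes, *Ndufa4* and *Ndufa4l2*.

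Muscle RNA came from 15 male mice of the 129Pas strain, all aged 7 weeks, and was sequenced as stranded mRNA libraries. *Mtm1* is the X-linked gene for myotubularin, a phosphoinositide phosphatase, and *Mtm1*-/y males, which lack its function, model X-linked myotubular myopathy. The groups were wild-type mice without drug (WT, n = 4), wild-type mice given tamoxifen, an oestrogen receptor modulator (WT + TAM, n = 4), mutants without drug (*Mtm1*-/y, n = 4) and mutants given tamoxifen (*Mtm1*-/y + TAM, n = 3). No source used here gives the tamoxifen regimen. *Mtm1* itself was measured at 15.2, 15.3, 14.9 and 15.6 CPM (counts scaled to a common library total with TMM factors) in WT, at 13.5 to 17.7 in WT + TAM, at 3.61, 3.63, 3.27 and 2.91 in *Mtm1*-/y and at 3.71, 3.04 and 3.7 in *Mtm1*-/y + TAM, so every library matched its genotype label. Total counts per library ran from 18042558 to 45823277, and the ranges of the 4 groups overlapped. Nothing in the labels says more of how the mice of a group were raised or processed, so p-values measure the spread between these mice.

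Complex I takes electrons from NADH and hands them to ubiquinone, and it uses the energy released to pump protons out of the mitochondrial matrix. It is L-shaped. The matrix arm carries the NADH site, a flavin and a chain of iron-sulfur clusters, and the membrane arm carries the proton pumps. The core subunits that do this chemistry are conserved from bacteria, some of them encoded in the nucleus (Ndufs and Ndufv genes) and the others in the mitochondrial genome (mt-Nd genes), while the many accessory subunits surround and stabilise the core. Assembly factors help to build the enzyme and do not stay in it. Tibialis anterior is rich in fast glycolytic fibres, which hold fewer mitochondria than slow oxidative fibres.

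By position in the enzyme, the subunits comprised 7 core subunits, 9 accessory subunits of the matrix arm, 9 of the proximal and 10 of the distal membrane arm, and *Ndufab1*, the acyl carrier protein that is present in both arms. Of the 46 members, 45 passed the filter on low counts and were tested. The member that did not pass was *Ndufs5*, a small subunit on the intermembrane side. The pseudogene-named *Ndufb1-ps*, annotated as a long non-coding RNA, fell outside the rule. Tested members had at least 109 counts in every library, the lowest being *Ndufaf2* in a WT + TAM library.

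Per kilobase of the principal transcript, *Ndufb10* stood at 393 and *Ndufb9* at 375 CPM per kilobase in WT, near the upper end of the subunits. Both belong to the distal membrane arm. The lowest tested subunits were *Ndufab1* at 13.3 and *Ndufb2* at 13.9 CPM per kilobase, and *Ndufs5* stood at 0.278. The coefficient of variation (CV) over the 4 WT mice was small, with a median over the 35 tested subunits of 4.98%. It was 18.6% in WT + TAM, 15.7% in *Mtm1*-/y and 5.56% in *Mtm1*-/y + TAM, so the untreated mutants and the treated wild-type mice spread more widely than the other 2 groups.

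The promoters of complex I genes are known for sites of shared transcription factors, so 4 motifs were sought, on both strands, in windows from 250 bases before to 50 bases after the RefSeq start (GRCm38.p6). Windows were available for 40 members. The NRF1 motif was present in 9 of them (22.5%), against 5.19% of 27025 genes with a window. YY1's motif, AAGATGGCG, was present in 6 (15%), against 1.64% of all genes, and in each it began 10 to 35 bases after the start. The ETS motif, CCGGAAG, bound by GABP, was present in 6 (15% against 9.93%) and the ERR motif, AAGGTCA, in 3 (7.5% against 5.38%). Both NRF1 and ERR motifs were present in *Ndufb4*, which held 3 separate NRF1 matches, and in *Ndufs5*. A match describes the letters alone. The windows of 3 members that were lower in *Mtm1*-/y (*Ndufs8*, *Ndufa9* and *Ndufaf5*) and of the member with the largest rise (*Ndufaf8*) are printed, as an example of each motif found among called members, 5′ to 3′ on the strand of the gene, with the motif in capitals. *Ndufs8* lies at chr19:3912725-3913024, minus strand, and has an ETS match read on the opposite strand. *Ndufa9* lies at chr6:126849095-126849394, minus strand, with a YY1 match. *Ndufaf5* lies at chr2:140170396-140170695, plus strand, with an NRF1 match. *Ndufaf8* lies at chr11:120098684-120098983, plus strand, with an ETS match 8 bases before and a YY1 match 10 bases after its start, and the matches do not overlap.
Ndufs8: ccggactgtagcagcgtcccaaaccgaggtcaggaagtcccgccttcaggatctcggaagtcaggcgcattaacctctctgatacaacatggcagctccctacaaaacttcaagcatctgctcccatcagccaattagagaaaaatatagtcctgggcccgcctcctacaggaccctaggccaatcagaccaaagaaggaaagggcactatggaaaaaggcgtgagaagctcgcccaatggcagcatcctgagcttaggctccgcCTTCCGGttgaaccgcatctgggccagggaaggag
Ndufa9: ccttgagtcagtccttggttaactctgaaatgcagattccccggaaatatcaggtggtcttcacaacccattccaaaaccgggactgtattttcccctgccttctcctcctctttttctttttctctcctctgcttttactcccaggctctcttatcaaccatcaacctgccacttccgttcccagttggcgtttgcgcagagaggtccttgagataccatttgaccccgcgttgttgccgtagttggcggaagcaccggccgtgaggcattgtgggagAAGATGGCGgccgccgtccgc
Ndufaf5: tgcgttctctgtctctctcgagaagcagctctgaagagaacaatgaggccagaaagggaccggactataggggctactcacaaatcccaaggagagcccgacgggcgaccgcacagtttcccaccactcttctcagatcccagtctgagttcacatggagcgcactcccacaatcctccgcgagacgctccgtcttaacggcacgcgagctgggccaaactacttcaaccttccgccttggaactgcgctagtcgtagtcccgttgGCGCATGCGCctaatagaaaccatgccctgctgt
Ndufaf8: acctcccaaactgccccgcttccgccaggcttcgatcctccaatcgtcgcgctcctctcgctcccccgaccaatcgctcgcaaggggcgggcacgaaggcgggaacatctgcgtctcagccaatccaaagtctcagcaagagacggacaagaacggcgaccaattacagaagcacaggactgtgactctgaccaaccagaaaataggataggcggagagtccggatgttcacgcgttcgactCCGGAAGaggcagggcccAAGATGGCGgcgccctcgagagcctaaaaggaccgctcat

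Before the comparisons, 2 libraries need to be described. WT + TAM replicate 1 was the lowest of its group in 35 of 35 tested subunits, with a median log2 difference of -0.56 from the mean of the other 3 mice. The slow-fibre list of 8 markers, all detected, summed to 4485 CPM in this library, against 584 to 1449 in the rest of its group, 724 to 1300 in WT, 491 to 814 in *Mtm1*-/y and 721 to 1482 in *Mtm1*-/y + TAM. Other marker sums of this library also lay outside the rest of its group. The fibroblast sum was 4596 CPM against 857 to 1798, the heart sum 105 against 1.69 to 6.78, the peripheral nerve sum 171 against 60.1 to 111 and the endothelial sum 229 against 377 to 437. *Mtm1*-/y replicate 1 was the lowest of its group in 29 of 35 subunits, with a median log2 difference of -0.44 from the others. Its slow-fibre sum, 814 CPM, was the highest of its group and within the range of WT. Its fibroblast sum was 351 CPM, against 965 to 1912 in the other mutants and 1226 to 1542 in WT, and its blood sum was 13.6 CPM, against 49.6 to 60.7 and 62.8 to 88.2. The part of these cell types in the complex I values was not tested. In the plot of all members by library both stand out as blue columns. Counts of called members are therefore given with and without both libraries. The 2 were picked by their low complex I values, so changes in these counts can follow from that choice. At the high side, WT + TAM replicate 4 was the highest of its group in 27 of 35 subunits and *Mtm1*-/y replicate 3 in 23. These were left out only 1 at a time.

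**Figure D1:**
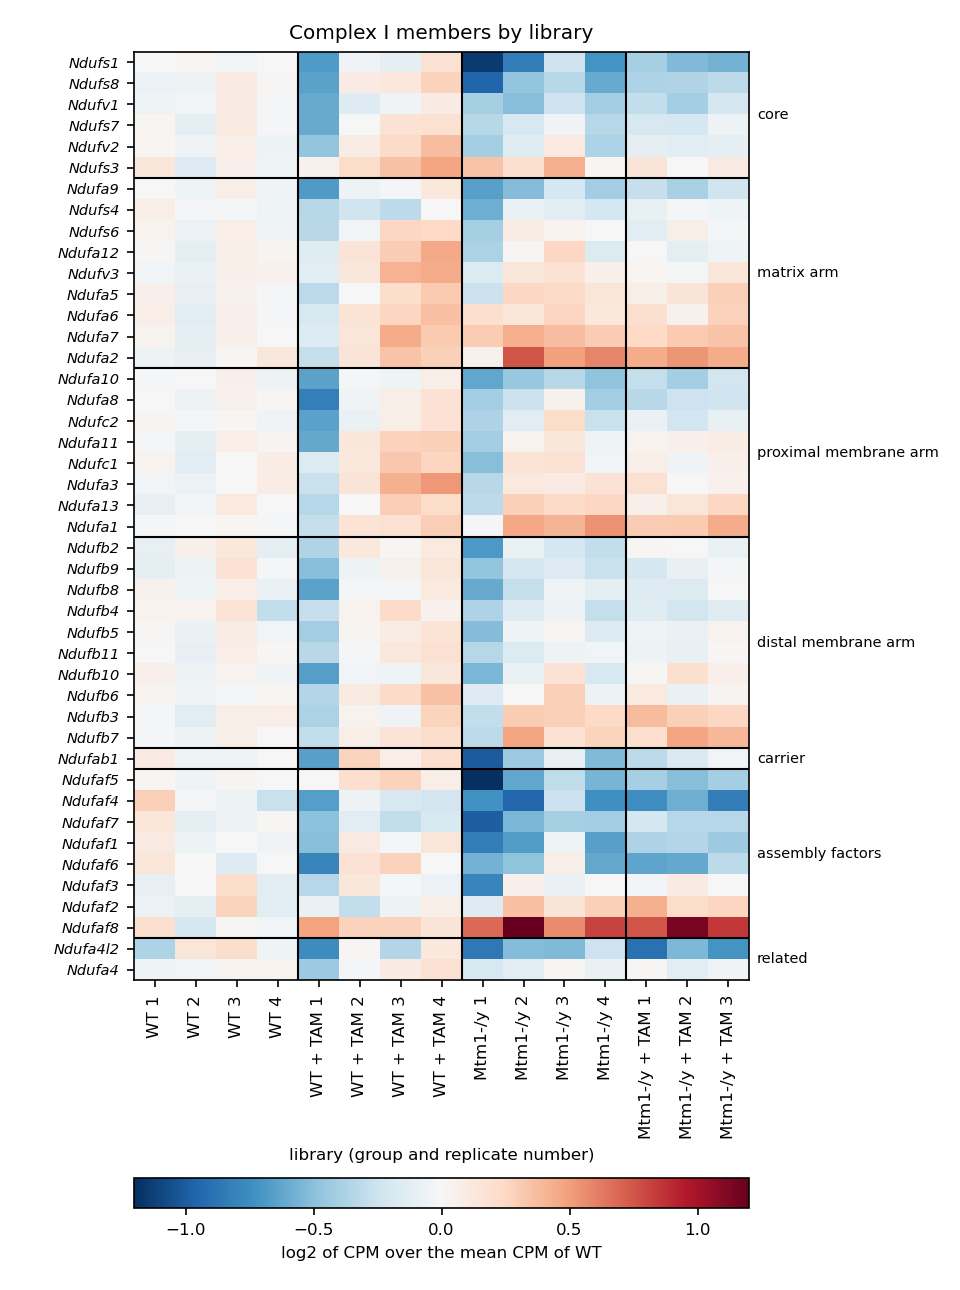
Colour shows log2 of the CPM over the mean CPM of WT, for 44 of the 45 tested members (rows, grouped by class and ordered by genotype difference) in the 15 libraries (columns, by group and replicate number). WT + TAM replicate 1 and *Mtm1*-/y replicate 1 are low in most subunits, and the *Ndufaf8* row is above WT in every *Mtm1*-/y and *Mtm1*-/y + TAM library.

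The first comparison asked how the loss of *Mtm1* changed complex I transcripts in untreated muscle. In the quasi-likelihood fit of edgeR over all genes, 14 of the 45 tested members had an adjusted p under 0.05, the threshold for a call. In *Mtm1*-/y 4 of these were higher and 10 lower. Over all 15533 genes tested, 30.4% were called (15.5% higher and 14.9% lower), so the members' share was near that of all genes. An unadjusted p under 0.05 was found in 19 members, and in 41.6% of all genes. Among the 35 tested subunits, 3 were higher and 5 lower, and the median log2 fold change was -0.14, where the median over all genes was 0.00. That subunit median ran from -0.21 without *Mtm1*-/y replicate 3 to -0.04 without *Mtm1*-/y replicate 1. No called member had an absolute log2 fold change over 1. The count fell to 8 without WT replicate 2 and likewise without *Mtm1*-/y replicate 2 (1 higher and 7 lower in each case), where 23.9% and 25.9% of all genes were called. Without the 2 libraries described above, 7 members were higher and 12 lower, and all 14 of the first calls were among these 19. In that fit 34.2% of all genes were called (17.1% higher and 17.2% lower). With scaling by library size alone in place of TMM, which moved the median of all genes by 0.15, the split was 6 higher and 7 lower (23.5% and 9.2% of all genes) and the subunit median was 0.00, that is, 0.15 below all genes. In bulk muscle, fewer cells of a type and less RNA per cell cannot be told apart.

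**Figure D2:**
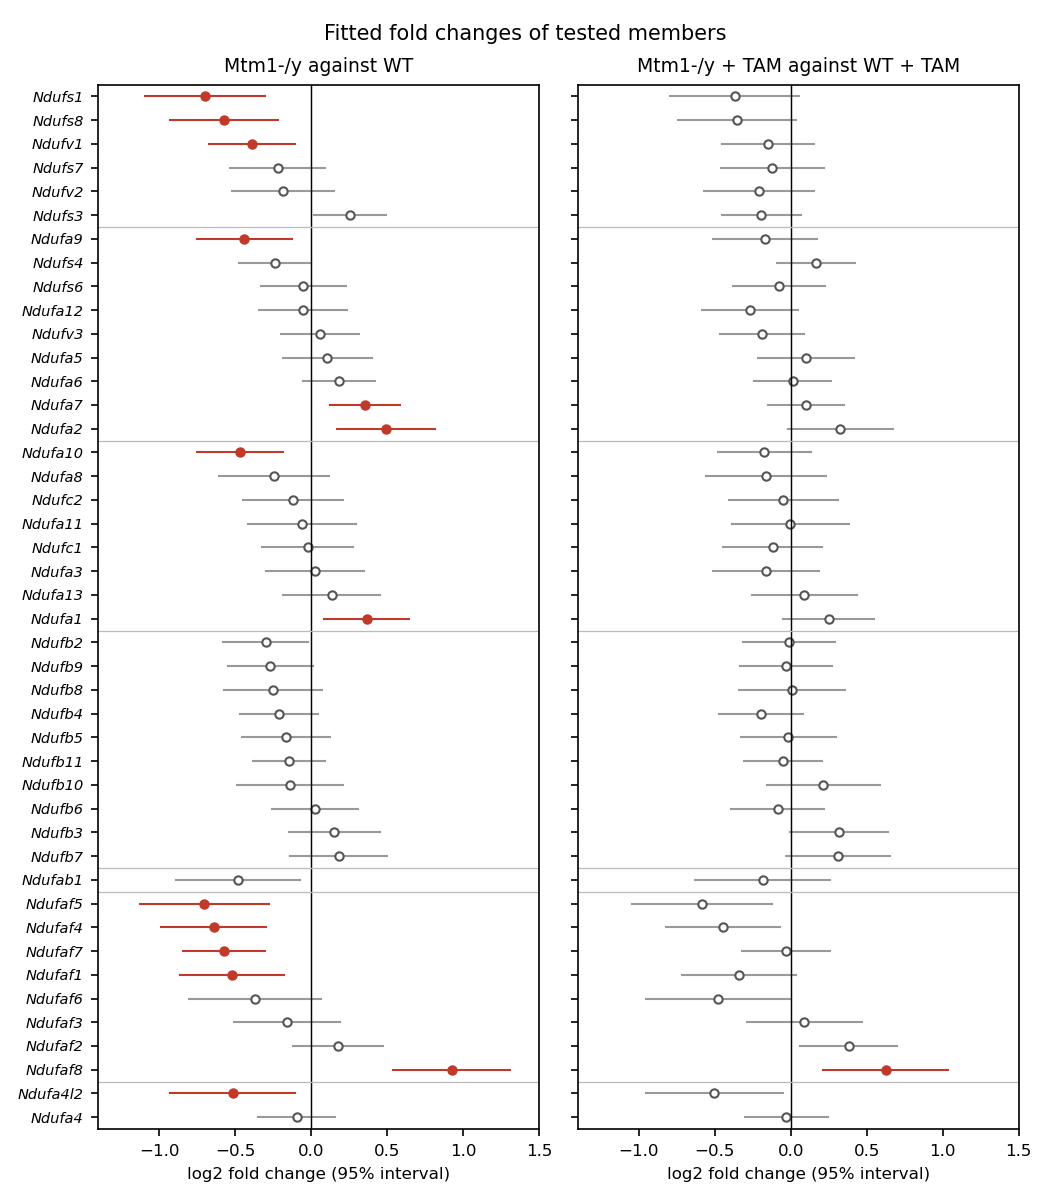
Fitted log2 fold changes with 95% intervals of 44 of the 45 tested members, in untreated mice (left) and under tamoxifen (right). Filled red symbols are members with an adjusted p under 0.05 over all genes. In untreated mice 10 filled symbols lie left of 0 and 4 right of it, and under tamoxifen the filled symbol is *Ndufaf8*.

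Among the classes of subunits, the core held the most lower calls. Of the 7 core subunits, 3 were called lower (*Ndufs1*, *Ndufs8* and *Ndufv1*), against 14.9% of all genes, and 0 higher, with a median log2 fold change of -0.31. Their summed level was 2925 ± 94.0 CPM (SD, n = 4) in WT and 2252 ± 270 CPM in *Mtm1*-/y, or 77.0% of WT. *Ndufs1* carries iron-sulfur clusters next to the NADH site. Its CPM values were 666, 675, 648 and 663 in WT and 299.8, 373, 557 and 403 in *Mtm1*-/y. All 4 mutants were below all 4 WT mice, for a log2 fold change (± SE) of -0.70 ± 0.18 at an adjusted p of 0.00855 in edgeR. *Ndufs8* holds the clusters that lead toward the quinone site. Its values were 161, 162, 182 and 171 CPM in WT and 87.3, 121, 134 and 111 in *Mtm1*-/y, again without overlap, with a log2 fold change of -0.57 ± 0.16 (adjusted p = 0.0148). *Ndufv1* binds NADH and the flavin. It was measured at 565, 571, 628 and 578 CPM in WT and 445, 410.3, 494 and 438 in *Mtm1*-/y, without overlap and with a log2 fold change of -0.39 ± 0.13 (adjusted p = 0.0299). The *Ndufv1* call was lost in 5 of the 15 fits that left out 1 library and with library size alone, whereas those of *Ndufs1* and *Ndufs8* were kept in all of these.

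The other 4 core subunits did not pass the test. *Ndufs7*, which holds the last cluster of the chain, had a log2 fold change of -0.22 (95% interval -0.53 to 0.09). *Ndufv2*, which holds a cluster beside the flavin, had one of -0.18 (-0.52 to 0.15). *Ndufs3*, a core subunit with no cofactor, differed in sign from the rest of its class. Its values were 79.7, 65, 75.4 and 69.9 CPM in WT and 91.8, 82.8, 98.1 and 73.6 in *Mtm1*-/y, and its log2 fold change was 0.26 ± 0.11 (adjusted p = 0.0868). Of the 50-base windows of *Ndufs3*, 35.8% also occur in other genes, including the processed pseudogene *Gm12251*. Over all libraries the mean was 0.182 CPM for *Gm12251* and 81.4 CPM for *Ndufs3*. The part of the shared windows in the counts of *Ndufs3* was not tested.

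Accessory subunits were called in both directions, where 15.5% of all genes were called higher and 14.9% lower. These small classes were not tested against those shares. In the matrix arm 2 of 9 were higher and 1 was lower, in the proximal membrane arm 1 of 8 tested was higher and 1 lower, and in the distal membrane arm 0 of 10 were called, with 1 at an unadjusted p under 0.05. The distal log2 fold changes ran from -0.30 for *Ndufb2* to 0.18 for *Ndufb7*. The summed levels in *Mtm1*-/y were 97.7% of the WT mean in the matrix arm, 93.1% in the proximal and 91.6% in the distal membrane arm.

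Lower accessory subunits were *Ndufa9* and *Ndufa10*. *Ndufa9* binds NADPH near the junction of the arms. It was measured at 385, 371, 407 and 374 CPM in WT and 244, 269, 332 and 289 in *Mtm1*-/y, without overlap, with a log2 fold change of -0.44 ± 0.14 (edgeR adjusted p = 0.0296). *Ndufa10* belongs by sequence to the nucleoside kinases. Its values were 365, 369, 384 and 352 CPM in WT and 239, 267, 292 and 263 in *Mtm1*-/y, also without overlap, and its log2 fold change was -0.47 ± 0.13 (adjusted p = 0.0124). The call of *Ndufa9* was lost in 7 of the 15 fits without 1 library and that of *Ndufa10* in none. *Ndufab1*, the carrier protein, was below WT in all 4 mutants (49.6, 44.7, 44.8 and 46.4 CPM in WT, 23.3, 34.4, 43.3 and 32.1 in *Mtm1*-/y), with an adjusted p of 0.062 in edgeR.

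Higher accessory subunits were *Ndufa2*, *Ndufa7* and *Ndufa1*. *Ndufa2* is a matrix-arm subunit with a thioredoxin-like fold. Its values were 116, 112, 122 and 132 CPM in WT and 125, 204, 169 and 181 in *Mtm1*-/y, with a log2 fold change of 0.49 ± 0.15 (edgeR adjusted p = 0.0189). *Mtm1*-/y replicate 1 lay inside the WT range and the other 3 mutants above it. *Ndufa7*, also of the matrix arm, was measured at 100, 89.9, 101 and 96.4 CPM in WT and 119, 131, 125 and 119 in *Mtm1*-/y, with all mutants above all WT mice and a log2 fold change of 0.35 ± 0.11 (adjusted p = 0.0196). *Ndufa1*, a small membrane subunit, had values of 76.6, 77.4, 78.9 and 76.8 CPM in WT and 76.5, 107, 103 and 113 in *Mtm1*-/y, with a log2 fold change of 0.36 ± 0.13 (adjusted p = 0.039). Here replicate 1 lay below the lowest WT mouse while the other 3 lay above the highest. The call of *Ndufa1* was lost in 8 of the 15 fits without 1 library, and those of *Ndufa2* and *Ndufa7* in 2 each. Counting members whose values did not overlap between the groups gave 3 higher (*Ndufa6*, *Ndufa7* and *Ndufaf8*) and 11 lower of 45, where over all genes 14.8% were higher and 15.7% lower without overlap.

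**Figure D3:**
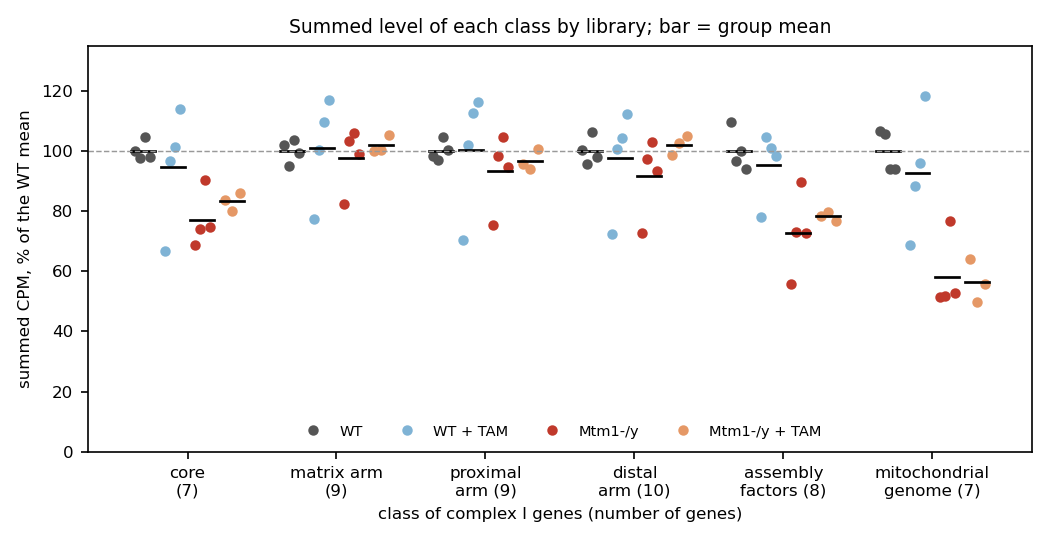
Summed CPM of each class of complex I genes in each library (points), as a percentage of the WT mean, with bars at the group means. In *Mtm1*-/y the core subunits stand at 77.0% and the assembly factors at 72.8% of WT, and the distal membrane arm at 91.6%.

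Assembly factors were mostly called in 1 direction. Of the 8, 4 were lower (*Ndufaf5*, *Ndufaf4*, *Ndufaf7* and *Ndufaf1*), against 14.9% of all genes, and 1 was higher (*Ndufaf8*), against 15.5%, with a median log2 fold change of -0.45. Their summed level ran from 193 to 225 CPM over the 4 WT mice and from 115 to 184 CPM over the 4 mutants. *Ndufaf5* hydroxylates an arginine of *Ndufs7* early in assembly. It was measured at 49.8, 47.1, 50.1 and 48.9 CPM in WT and 15.5, 31.8, 39.7 and 33.3 in *Mtm1*-/y, without overlap, and its log2 fold change of -0.70 ± 0.19 was the lowest of all members (edgeR adjusted p = 0.0128). *Ndufaf8*, the partner protein that binds and stabilises *Ndufaf5*, went the other way. Its values were 7.08, 5.37, 6.24 and 6.04 CPM in WT and 9.94, 17.2, 9.18 and 10.8 in *Mtm1*-/y, all mutants being above all WT mice, with a log2 fold change of 0.92 ± 0.18 (adjusted p = 0.00126), the highest of all members. The fall of *Ndufaf5* was largest in *Mtm1*-/y replicate 1 and the rise of *Ndufaf8* was largest in replicate 2.

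*Ndufaf4* acts with *Ndufaf3* on the module that holds the quinone site. Its values were 69.5, 56.5, 54.6 and 47.3 CPM in WT and 34.3, 29.7, 47.8 and 34.2 in *Mtm1*-/y, with a log2 fold change of -0.64 ± 0.16 (edgeR adjusted p = 0.00641), and the highest mutant overlapped the lowest WT mouse. *Ndufaf3* itself ranged from 12.4 to 15.7 CPM in WT and from 7.82 to 14.2 in *Mtm1*-/y and did not pass the test (log2 fold change -0.16, 95% interval -0.51 to 0.19). Without *Mtm1*-/y replicate 1 its log2 fold change was 0.00. *Ndufaf7* is an arginine methyltransferase that acts early in assembly. It was measured at 24.9, 20.7, 21.6 and 22.8 CPM in WT and 11.3, 15.4, 17.1 and 16.8 in *Mtm1*-/y, without overlap, with a log2 fold change of -0.57 ± 0.12 (adjusted p = 0.00282). *Ndufaf1* works on the membrane arm together with *Acad9*, *Ecsit* and *Tmem126b*. Its values were 40.8, 36.3, 37.9 and 36.8 CPM in WT and 21.3, 23.9, 36.5 and 24.1 in *Mtm1*-/y, with 3 mutants below WT and 1 at its lower edge, and a log2 fold change of -0.52 ± 0.16 (adjusted p = 0.0202). *Ndufaf2*, a relative of *Ndufa12* that acts late in assembly, had a log2 fold change of 0.18 (-0.12 to 0.47), and *Ndufaf6* had one of -0.37 (-0.81 to 0.06). Neither passed the test. The calls of *Ndufaf4*, *Ndufaf7* and *Ndufaf8* were kept in every alternative fit, that of *Ndufaf1* was lost in 4 of the 15 fits without 1 library, and that of *Ndufaf5* was lost when the fit held the WT and *Mtm1*-/y libraries alone (adjusted p = 0.0511).

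**Figure D4:**
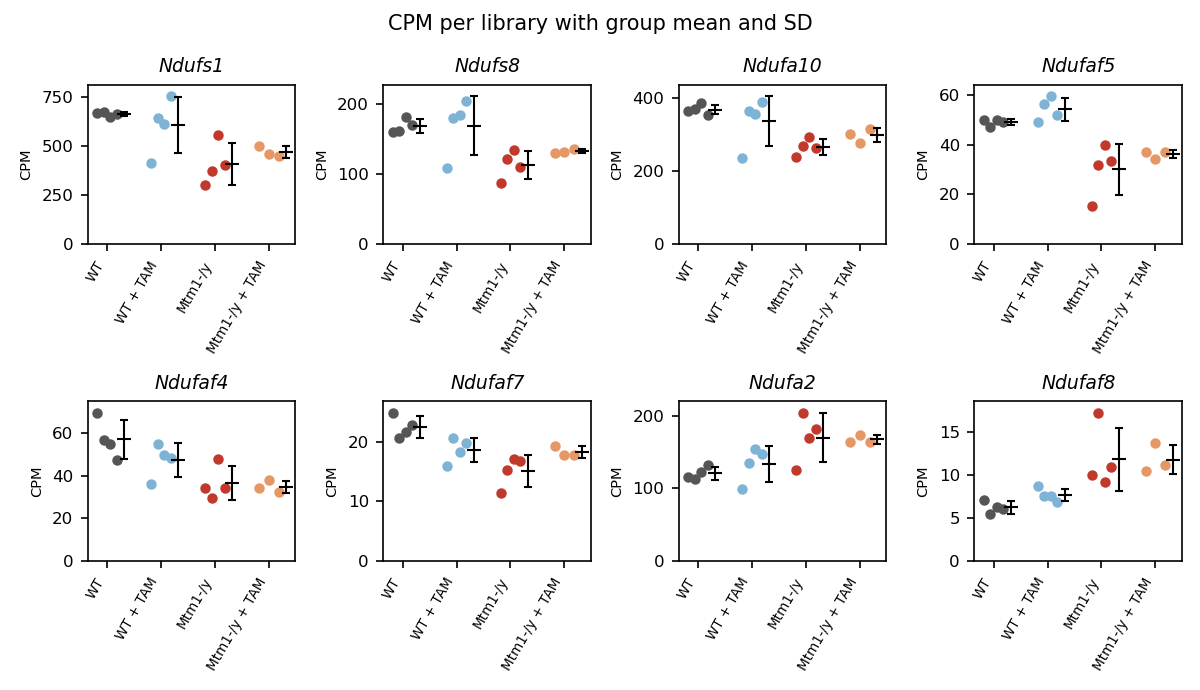
CPM of 8 members in each library (points) with the mean and SD of each group (black), for members with a called genotype difference. In *Ndufs1* the *Mtm1*-/y points, from 299.8 to 557 CPM, lie below the 4 WT points, and in *Ndufaf8* they lie above them.

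The 2 related genes were also measured. *Ndufa4* carries a complex I name but is held to be a subunit of complex IV. It ranged from 388 to 413 CPM in WT and from 351 to 405 in *Mtm1*-/y, with a log2 fold change of -0.10 (95% interval -0.35 to 0.16). That sign was the opposite, 0.05, with library size alone. Its paralogue *Ndufa4l2*, known for induction by hypoxia, was measured at 8.78, 12.5, 13.2 and 10.9 CPM in WT and 6.28, 7.94, 7.85 and 9.59 in *Mtm1*-/y. The log2 fold change was -0.52 ± 0.19 (edgeR adjusted p = 0.0467), and the call was lost in 10 of the 15 fits without 1 library and in 5 other fits.

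*Ndufs5*, under the filter, had 7, 4, 5 and 7 counts in WT, 4, 5, 11 and 6 in WT + TAM, 12, 6, 9 and 11 in *Mtm1*-/y and 8, 6 and 10 in *Mtm1*-/y + TAM. Scaled by library size, its mean was 0.180 CPM in the 4 WT mice and 0.286 CPM in the 4 mutants, and an exact permutation test gave p = 0.0286, two-sided, the smallest p that 4 against 4 mice allow. The 3 other comparisons gave exact p-values of 0.8 (tamoxifen in *Mtm1*-/y), 0.2 (tamoxifen in WT) and 0.343 (genotype under tamoxifen). Of its 50-base windows, 31.1% also occur in the processed pseudogene *BC002163*, which had a mean of 20.7 CPM over all libraries. The level of *Ndufs5* is uncertain at these counts, and the part of the shared windows in it was not tested. Without *Mtm1*-/y replicate 1 the difference of its means fell from 0.105 to 0.0863 CPM, with an exact permutation p of 0.0571. Shared windows were also found in *Ndufb4* (37.0%), *Ndufa12* (26.2%) and *Ndufb9* (23.4%), none of them called, and among called members in *Ndufaf7* (4.41%) and *Ndufa7* (1.88%).

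The complex I subunits of the mitochondrial genome were lower as a group. Of 7, 5 were tested and all 5 were called lower in *Mtm1*-/y, against 14.9% of all genes, with a median log2 fold change of -0.81. Their summed level was 43441 ± 3071 CPM (SD, n = 4) in WT and 25228 ± 5386 CPM in *Mtm1*-/y, or 58.1% of WT. The log2 fold changes were -0.91 ± 0.21 for *mt-Nd6*, -0.84 ± 0.18 for *mt-Nd2*, -0.81 ± 0.15 for *mt-Nd4* and -0.78 ± 0.18 for *mt-Nd5*. In each, as in *mt-Nd1*, the adjusted p of edgeR was at most 0.00714. *mt-Nd3* and *mt-Nd4l* had 0 or 1 count in every library and were not compared. The mean fall in summed level was thus larger for the mitochondrial than for the nuclear subunits, which together stood at 87.1% of WT (means of 7518 ± 260 CPM and, in the mutants, 6552 ± 794 CPM). The difference between these falls was not tested. With library size alone the nuclear subunits stood at 96.1% of WT in *Mtm1*-/y. Leaving out 1 mutant gave TMM-scaled means of 6260 to 6901 CPM.

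Other lists of the pathway put the complex I values in context, beside the 14.9% of all genes called lower and 15.5% called higher. Of 9 assembly factors outside the Ndufaf series, 5 were lower and 0 higher (median -0.31), among them *Nubpl* at -0.48 and *Tmem126b* at -0.69. Among 15 enzymes of pyruvate oxidation and the citric acid cycle, which supply NADH, 10 were lower and 0 higher (median -0.46), with *Pdha1* at -0.80 and *Suclg1* at -0.83. In complex II 1 of 4 was lower (*Sdha*, -0.64), in complex III 3 of 9 (*Uqcrc2*, *Uqcrc1* and *Uqcrfs1*, -0.62, -0.55 and -0.49) and in ATP synthase 2 of 15 (*Atp5c1*, -0.46, and *Atp5a1*, -0.47). Complex IV had 1 of 11 higher (*Cox8b*, 0.43) and 0 lower. The calls in ATP synthase and complex IV were thus near or under the shares of all genes. Of 9 general mitochondrial genes, 4 were lower, among them *Vdac1* at -0.51, and 1 was higher (*Tomm20*, 0.32). Of 9 regulators of these genes, among them *Nrf1*, *Gabpa*, *Yy1* and *Ppargc1a*, 0 were called and 1 had an unadjusted p under 0.05, the smallest adjusted p being that of *Yy1* (-0.27 ± 0.10, adjusted p = 0.0509).

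Markers of other cell types were also compared between the genotypes. Over all genes 15.5% were called higher and 14.9% lower. All 4 endothelial markers were called lower, and their sum was 357 to 471 CPM in WT mice and 180 to 248 in mutants. Of 6 skeletal muscle markers, 2 were lower and 0 higher, with sums of 154692 to 209835 CPM in WT mice and 121445 to 159436 in mutants. Of 8 slow-fibre markers 1 was lower, of 5 fast-fibre markers 1 was lower, of 5 macrophage markers 2 were higher, of 5 fibroblast markers 1 was higher, and of 4 peripheral nerve markers 2 were higher. None of the tested adipocyte, blood and heart markers was called. Lists with at most 1 call were thus near or under the share of all genes. The fibroblast sum averaged 1170 ± 669 CPM (SD, n = 4) in mutants and 1385 ± 169 CPM in WT. No marker list had a member at 0 in all libraries. Their part in the complex I values was not tested.

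Across members, the genotype difference followed the length of the transcript. The Spearman rho between log2 fold change and the length of the principal transcript was -0.65 over the 45 tested members and -0.63 over the 35 subunits, and -0.18 over 13437 tested protein-coding genes (-0.42 over the members with the union of all exons). These are descriptions, since genes of a library share its preparation. Members of at most 983 bases, the median, held 4 higher and 1 lower calls, and longer members held 0 higher and 9 lower. Protein-coding genes of at most 983 bases had a median log2 fold change of 0.25, with 219 of 706 called higher and 41 lower, and longer genes had one of -0.01. Against the median of all protein-coding genes in the same of 20 length bins, 40 of the 45 members and 31 of the 35 subunits lay lower. Under tamoxifen, rho over the members was -0.48 and over all protein-coding genes -0.29.

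**Figure D5:**
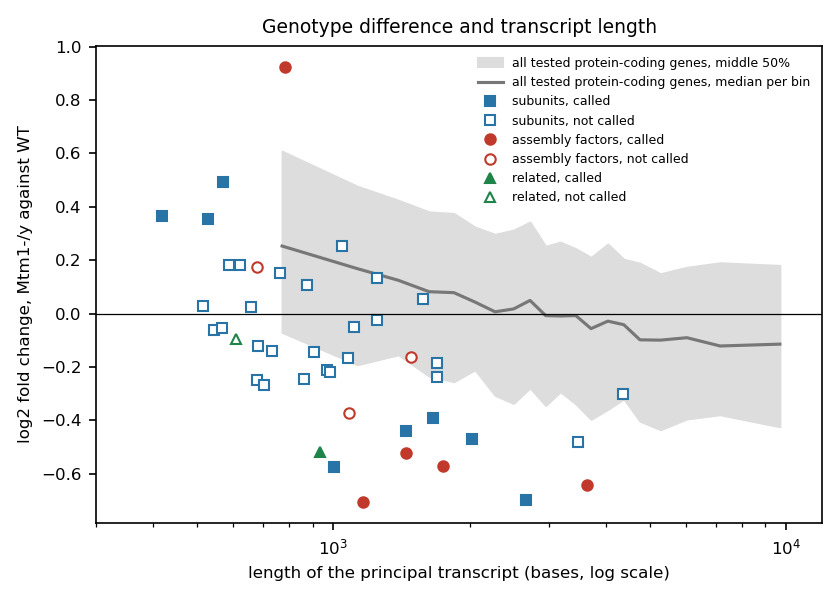
Log2 fold change of *Mtm1*-/y against WT for 44 of the 45 tested members against the length of its principal transcript (log scale), with the median (line) and middle 50% (band) of all tested protein-coding genes in 20 length bins. Filled symbols are called members. The 4 called higher lie at the short end and most members lie below the line.

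The next comparison asked what tamoxifen changed in *Mtm1*-/y muscle. Of the 45 tested members, 0 were called by edgeR in *Mtm1*-/y + TAM against *Mtm1*-/y and 0 had an unadjusted p under 0.05, where 0.0129% of all genes were called and 5.54% had an unadjusted p under 0.05. DESeq2 and limma-voom called 0 as well. Values did not overlap in 1 member that was higher (3.33% of all genes) and 0 that were lower (2.38%). The median log2 fold change of the subunits was 0.07, with 25 of 35 above 0, and that of all genes was 0.00. It ran from 0.02 without *Mtm1*-/y replicate 1 to 0.13 without *Mtm1*-/y replicate 3. The intervals limit what could have been missed. For 38 of the 45 members the 95% interval lay within a 1.5-fold change in either direction. The 3 treated mice are compared here with 4 untreated mutants, which also enter the genotype comparison. The 7 whose intervals reached beyond were *Ndufs1*, *Ndufs8*, *Ndufb10*, *Ndufab1*, *Ndufaf5*, *Ndufaf6* and *Ndufa4l2*.

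The 3 smallest p-values of this comparison belonged to *Ndufaf7*, *Ndufb2* and *Ndufs4*. *Ndufaf7* was measured at 11.3, 15.4, 17.1 and 16.8 CPM in *Mtm1*-/y and 19.4, 17.8 and 17.7 in *Mtm1*-/y + TAM, without overlap, with a log2 fold change of 0.27 ± 0.13 (edgeR adjusted p = 0.855). *Ndufb2*, of the distal membrane arm, had values of 37.8, 57.8, 52.7 and 49.7 CPM and 61.4, 61.3 and 57.5, with a log2 fold change of 0.28 ± 0.14 (adjusted p = 0.855). *Ndufs4*, an accessory subunit next to the NADH module, had values of 143, 203, 198 and 186 CPM and 203, 212 and 207, with one of 0.19 ± 0.12 (adjusted p = 0.869). In each of the 3 genes *Mtm1*-/y replicate 1 was the lowest of the untreated mutants.

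Values of the core subunits and assembly factors in treated and untreated mutants overlapped, apart from *Ndufaf7*. *Ndufs1* was measured at 501, 459 and 447 CPM and *Ndufs8* at 131, 131 and 136 CPM in *Mtm1*-/y + TAM. *Ndufaf5* stood at 37.2, 34.3 and 37 CPM, and *Ndufaf8* at 10.4, 13.7 and 11.1 CPM, above the 5.37 to 7.08 CPM of WT. Log2 fold changes ran from -0.17 to 0.23 over the 7 core subunits, 6 of them above 0, and from -0.14 to 0.27 over the 8 assembly factors. The summed level of the nuclear subunits was 7036 ± 209 CPM (SD, n = 3) in *Mtm1*-/y + TAM, or 93.6% of WT, and lay within the range of the untreated mutants (5505 to 7426 CPM). With library size alone the means were 7133 CPM in WT, 6855 CPM in *Mtm1*-/y and 7504 CPM in *Mtm1*-/y + TAM, so the order of WT and treated mutants depended on the scaling.

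In wild-type muscle, tamoxifen was likewise compared with no drug. Of the 45 members, 0 were called by edgeR in WT + TAM against WT and 2 had an unadjusted p under 0.05, where 0.309% of all genes were called and 11.3% had such a p. Values did not overlap in 0 members that were higher (4.22% of all genes) and 1 that was lower, *Ndufaf7* (3.86%). The median log2 fold change of the subunits was 0.02, but -0.05 without WT + TAM replicate 4 and 0.15 without both replicates 1, and for all 35 subunits the 95% interval lay within a 1.5-fold change. The 2 members were *Ndufs3*, with 75, 84.5, 92.3 and 101 CPM in WT + TAM and a log2 fold change of 0.28 ± 0.11 (adjusted p = 0.326), and *Ndufaf7*, with 16, 20.6, 18.3 and 19.8 CPM and one of -0.27 ± 0.12 (adjusted p = 0.418). *Ndufv3*, an accessory subunit of the NADH module, came next, with 93.6, 90.6, 99.9 and 99.2 CPM in WT, 87.5, 105, 128 and 131 in WT + TAM and an adjusted p of 0.466 in edgeR. In each of the 3 genes WT + TAM replicate 1 was the lowest of its group. Without it and *Mtm1*-/y replicate 1, *Ndufv3* and *Ndufa3* were called higher. In that fit 2.26% of all genes were called (1.33% higher and 0.925% lower).

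The last comparison set the genotypes against each other under tamoxifen. In *Mtm1*-/y + TAM against WT + TAM, 1 of 45 members was called, *Ndufaf8*, which was higher, where 20.1% of all genes were called (10.6% higher and 9.46% lower). An unadjusted p under 0.05 was found in 7 members and 33.7% of all genes. Without overlap were 4 members that were higher (*Ndufa1*, *Ndufa2*, *Ndufaf2* and *Ndufaf8*), against 17.2% of all genes, and 1 that was lower (*Ndufaf5*), against 14.4%. *Ndufaf8* was measured at 8.62, 7.49, 7.5 and 6.86 CPM in WT + TAM, below all 3 treated mutants, and its log2 fold change was 0.63 ± 0.19 (edgeR adjusted p = 0.0275). The call was lost in 5 of the 15 fits without 1 library. The median log2 fold change of the subunits was -0.06, against -0.02 for all genes. It was -0.19 without WT + TAM replicate 1 and 0.02 without WT + TAM replicate 4. *Ndufaf5* was measured at 48.9, 56.2, 59.4 and 51.9 CPM in WT + TAM, above all treated mutants, with a log2 fold change of -0.58 ± 0.21 and an adjusted p of 0.0628. *Ndufaf2* had a log2 fold change of 0.38 ± 0.14 (adjusted p = 0.0743).

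This count depended on single libraries. Without WT + TAM replicate 1, 1 member was higher and 8 lower, namely *Ndufs1*, *Ndufs8*, *Ndufa8*, *Ndufa10*, *Ndufaf1*, *Ndufaf4*, *Ndufaf6* and *Ndufa4l2*, where 21.5% of all genes were called. Without *Mtm1*-/y replicate 1 it was 4 members (26.8% of all genes) and without *Mtm1*-/y replicate 3 it was 3 (20.8%). These untreated mutants are not in the groups compared. They enter this fit through the shared count filter, scaling and estimate of the spread. Without both replicates 1 it was 2 higher and 17 lower, where 15.1% of all genes were higher and 14.8% lower. With library size alone, which moved the median of all genes from -0.02 to 0.14, it was 7 higher and 0 lower. In that fit 17.3% of all genes were higher and 5.04% lower. Side by side, *Ndufs1* had a log2 fold change of -0.70 without and -0.37 with tamoxifen, *Ndufs8* of -0.57 and -0.35, *Ndufa10* of -0.47 and -0.17, and *Ndufaf4* of -0.64 and -0.44. Without both replicates 1 the pairs were -0.58 and -0.51 for *Ndufs1*, -0.47 and -0.51 for *Ndufs8*, -0.42 and -0.31 for *Ndufa10* and -0.61 and -0.55 for *Ndufaf4*. In these 4 members the values under tamoxifen then lay closer to those of untreated mice and the order of *Ndufs8* turned. In the accessory subunits called higher in untreated mice, the values then lay further apart. The pair of *Ndufa2* was 0.49 and 0.33 with all libraries and 0.61 and 0.21 without both replicates 1. That of *Ndufa1* was 0.36 and 0.25, then 0.47 and 0.14, and that of *Ndufa7* was 0.35 and 0.10, then 0.37 and -0.0038. Of the called members of untreated mice, *Ndufaf7* had the smallest value under tamoxifen, -0.03 against -0.57, and its sign under tamoxifen was the opposite with library size alone (0.13). Without both replicates 1 its values were -0.45 in untreated mice and -0.10 under tamoxifen. The 2 genotype comparisons share no library. Of the mitochondrially encoded subunits, 4 of 5 were called lower under tamoxifen too, against 9.46% of all genes, with a median of -0.85. All 5 had a lower mean CPM in *Mtm1*-/y + TAM than in WT + TAM. Their summed level in *Mtm1*-/y + TAM was 60.9% of that of WT + TAM.

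Whether the genotype difference itself changed with tamoxifen was tested as an interaction. Of the 45 members, 0 were called by edgeR and 3 had an unadjusted p under 0.05, where 0% of all genes were called and 10.6% had such a p. The 3 were *Ndufaf7* at 0.54 ± 0.18 (adjusted p = 0.379), *Ndufs3* at -0.45 ± 0.16 (adjusted p = 0.392) and *Ndufs4* at 0.41 ± 0.16 (adjusted p = 0.415) on the log2 scale. The 95% interval lay within a 1.5-fold change for 15 of the 45 members, so the interaction was measured less precisely than either simple comparison.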

How the data were processed

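The deposited table holds whole-number read counts per gene, made by the authors with 1 column per mouse and no pooling (15 columns, 0 unused). Tools in the submitters' processing notes, with no role or order, were STAR 2.5.3a, Bowtie2 2.2.8, HTSeq 0.6.1p1 and cutadapt 1.10, and builds were GRCm38 and mm10. Libraries were TruSeq Stranded mRNA. No source used here gives the annotation release, the strand setting or filters. All 30672 identifiers matched GENCODE M21, which gave symbols, and 582 genes had no count.

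Genes with enough counts (filterByExpr, minimum count 10) numbered 15533. They were scaled by TMM and fitted with edgeR 4.0.16 (R 4.3.3), robust quasi-likelihood, 4 group means, 11 residual degrees of freedom and a biological coefficient of variation of 20.8%. P-values are two-sided, adjusted by Benjamini-Hochberg over all genes tested, and called under 0.05. CPM are TMM-scaled. *Ndufs5* was compared by exact permutation (scipy 1.17.1). DESeq2 1.42.0, limma 3.58.1, other scalings and filters, a replicate block and fits without single libraries were alternatives. Scripts were tested on simulated data. Named are the called members, the 3 smallest p-values where under 3 were called, core subunits, assembly factors, related genes, level extremes and up to 4 members of other lists. For the tamoxifen comparisons core subunits and assembly factors are given in part as ranges. Members and lists were chosen with earlier results of these data known. Library size alone, and leaving out libraries for summed levels and *Ndufs5*, were chosen after seeing the data. The 2 libraries left out together were picked by their low subunit values. Replicate numbers are those of the labels. Counts and sums cover all members, and values of 1 member are not reported here.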

Additional observations from a re-analysis of the deposited data

Results flagged for a closer look

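In 5 of 141 group values tested, 1 library lay far from the others of its group by Dixon's test, where chance gives about 1 in 20. In *Mtm1*-/y replicate 1, *Ndufa13* stood at 254.9 CPM against 372 to 385 in the other mutants, *Ndufa3* at 95.02 against at least 129, and *Ndufb3* at 46.19 against 66.8 to 70.1. In *Mtm1*-/y replicate 3, *Ndufaf6* stood at 12.84 CPM against at most 8.75. In WT replicate 3, *Ndufaf2* stood at 8.187 CPM against 6.25 to 6.49.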

How the results depend on the processing

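Leaving out 1 library, or both replicates 1, gave 8 to 19 called members for genotype in untreated mice, 0 to 2 for tamoxifen in WT and 0 to 19 for genotype under tamoxifen (0 without WT + TAM replicate 2, 3 or 4 or *Mtm1*-/y + TAM replicate 2 or 3, 9 without WT + TAM replicate 1), and 0 for tamoxifen in *Mtm1*-/y and for the interaction. With an absolute log2 fold change over 1 also required, 0 were called for genotype in untreated mice and 0 under tamoxifen. Under tamoxifen DESeq2 called 2, the fit of only the groups compared 2 and library size alone 7. Of all genes they called 23.8%, 20.3% and 22.3%. Without both replicates 1 the interaction's subunit median was -0.12 (-0.12 to 0.17 over all fits with libraries left out). Summed subunit levels with library size alone were 7504 CPM in *Mtm1*-/y + TAM against 7133 in WT. The *Ndufs5* difference was 0.0863 to 0.118 CPM over fits without 1 library.

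Among members named with values, signs turned in *Ndufaf3* in untreated mice (0.0022 without *Mtm1*-/y replicate 1 and 0.003 without both replicates 1, range -0.24 to 0.003) and *Ndufa4* (0.047 with library size alone). Under tamoxifen they turned in *Ndufa7* (-0.0042 without WT + TAM replicate 1 and -0.0038 without both, range to 0.19), *Ndufaf7* (0.0025 with the replicate block, 0.0186 without WT + TAM replicate 2, range from -0.098, and 0.126 with library size alone) and *Ndufv1* (0.0138 with library size alone). Over all 45 tested members, leaving out both replicates 1 turned the sign of 5 for genotype in untreated mice, 5 under tamoxifen, 9 for tamoxifen in *Mtm1*-/y, 16 for tamoxifen in WT and 15 for the interaction. The causes were not tested.

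Same-numbered libraries did not deviate together (median correlation 0.014 over 21 pairs, -0.006 over 63 others, and 4 of 15 libraries correlated best with their own number). With the replicate block 16 members were called for genotype (4 higher and 12 lower), and the other counts were 0, 0, 1 and 0. Low counts limited *Ndufs5*, with 4 to 12 per library.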
